A study of Homo sapiens with 18 samples.

Results

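Transforming growth factor beta (TGF-beta) signaling was followed through 9 genes: the ligand genes TGFB1 and TGFB2, the receptor genes TGFBR1 and TGFBR2, the intracellular mediator SMAD3 and its antagonist SMAD7, the latent TGF-beta binding proteins LTBP1 and LTBP2, and the secreted matrix protein TGFBI, named for its induction by TGF-beta. The genes were given as a list of names, drawn up with earlier results of these data known, and all 9 were found by symbol among the 25673, 25540 and 25557 genes of the 3 expression tables (PBRM1, IRF1 and MUC1 experiments). The study sequenced RNA from 18 cultures, 3 in each of 6 groups, all of puromycin-resistant triple-negative breast cancer (TNBC) cells. BT-549 cells, grown with insulin, carried a stable PBRM1shRNA or a stable control shRNA, and in a separate experiment a stable IRF1shRNA or its own control shRNA. MDA-MB-436 cells, which have a BRCA1 mutation, carried an inducible MUC1 hairpin (MDA-MB-436/tet-MUC1shRNA) and received doxycycline (DOX) at 500 ng/ml or vehicle (0.1% DMSO). The length of DOX treatment of these libraries is not given in the sources used here. Each silenced line rests on 1 hairpin, and no DOX-treated group with a control hairpin was used here. The p-values rest on the spread among triplicate cultures of a line. In the main BT-549 fits this is the spread of genes of like level and not of each gene.

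Background to the genes is as follows. TGF-beta ligands are secreted as latent complexes, in which the mature dimer is held by its own propeptide, and LTBP1 tethers this complex to the matrix until integrins or proteases release it. The active ligand binds the type II receptor TGFBR2, which phosphorylates the type I receptor TGFBR1, and this kinase in turn phosphorylates SMAD2 and SMAD3, which enter the nucleus with SMAD4. In epithelial and carcinoma cells the pathway is known for arresting growth in some settings and for inducing epithelial-mesenchymal transition and matrix genes in others, and SMAD7 is among its own induced brakes.

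Sequences upstream of the start site are shown for the genes with 1 annotated start whose levels moved most or moved in opposite directions in the BT-549 experiments (TGFB1, TGFB2 and TGFBI). They are the 250 bases before the start in RefSeq on GRCh38.p14, read 5′ to 3′ on the gene's own strand. TGFB1 lies on the minus strand of chromosome 19 (41330323 to 41353922), TGFB2 on the plus strand of chromosome 1 (218345336 to 218444619) and TGFBI on the plus strand of chromosome 5 (136028988 to 136063818). Capitals mark GC boxes (GGGCGG on either strand, a core motif bound by SP1) in TGFB1 and TGFBI, and SMAD-binding elements (CAGAC on either strand) in TGFB2.
TGFB1, chr19:41353923-41354172: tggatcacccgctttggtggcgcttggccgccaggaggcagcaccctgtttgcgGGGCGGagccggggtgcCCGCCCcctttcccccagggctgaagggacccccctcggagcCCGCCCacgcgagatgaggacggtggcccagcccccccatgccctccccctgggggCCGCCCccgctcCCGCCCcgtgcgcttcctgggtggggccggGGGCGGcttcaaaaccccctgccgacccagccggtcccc
TGFB2, chr1:218345086-218345335: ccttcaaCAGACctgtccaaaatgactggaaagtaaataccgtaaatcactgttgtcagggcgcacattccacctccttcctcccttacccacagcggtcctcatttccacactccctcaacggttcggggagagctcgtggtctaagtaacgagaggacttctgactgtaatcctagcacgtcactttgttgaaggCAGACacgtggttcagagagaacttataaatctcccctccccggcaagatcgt
TGFBI, chr5:136028738-136028987: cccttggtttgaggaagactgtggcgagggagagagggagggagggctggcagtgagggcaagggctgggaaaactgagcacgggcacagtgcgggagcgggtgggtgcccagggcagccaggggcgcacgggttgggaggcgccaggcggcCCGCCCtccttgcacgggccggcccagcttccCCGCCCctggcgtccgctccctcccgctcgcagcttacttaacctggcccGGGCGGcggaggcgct

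The 3 windows differed in composition. GC content was 76.8% for TGFB1, 72.8% for TGFBI and 50.4% for TGFB2, against a median of 57.6% over 27056 promoter windows of the same length. The TGFB1 window held 6 GC boxes and the TGFBI window 3, while TGFB2 held none, 2 SMAD-binding elements and a TATA box (TATAAA). GC boxes were found in 4 of the 9 genes (also SMAD3 and LTBP2) and in 42.1% of all windows, and CAGAC in 3 of the 9 (also SMAD7 and LTBP1) and in 37.9% of all windows. The interferon response motif (GAAA, any 2 bases, GAAA), which holds the core contacted by IRF proteins, was in none of the 9 windows and in 3.07% of all windows. The palindrome GTCTAGAC (0.177% of windows), the AP-1 element TGANTCA (6.59%) and the STAT motif TTCNNNGAA (6.76%) were likewise in none of the 9, all searched on both strands. A match is a run of letters and not a measured binding site, and for the genes with several annotated starts (TGFBR1, TGFBR2, SMAD3, SMAD7 and LTBP1) only the most upstream was searched.

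Silencing was seen in the targeted transcripts. PBRM1 averaged 2.96 ± 0.27 TPM with PBRM1shRNA and 11.9 ± 1.02 TPM with control shRNA, IRF1 1.17 ± 0.14 TPM with IRF1shRNA and 4.75 ± 0.41 TPM with control shRNA, and MUC1 3.03 ± 0.54 TPM with DOX and 5.63 ± 0.70 TPM with vehicle (SD, n = 3 each). TPM corrects reads for transcript length and brings each library to the same sum. Of that sum, 75.5% to 79.2% (PBRM1 experiment), 84.8% to 88.5% (IRF1) and 12.1% to 15.2% (MUC1) went to short noncoding RNAs, so levels are not comparable between tables and were tested only within each. Genes at 1 TPM or more numbered 10057 to 10761, 8632 to 9523 and 12988 to 13188 per library. Libraries of a group correlated at 0.994 to 0.999 across genes and libraries of different groups at 0.942 to 0.978. As cell markers, VIM and the other mesenchymal genes were all above 1 TPM in BT-549 cells, endothelial genes summed to 1.83 TPM or less, and CD3E and MS4A1 of T and B cells were at 0 in every group. Of the hormone receptor genes, 1 of 3 passed 1 TPM in each group. These are bulk RNA samples, in which fewer cells of a type and less RNA per cell cannot be told apart.

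PBRM1 silencing moved the ligands and the receptors in opposite directions within each pair: TGFB1 and TGFBR2 rose, while TGFB2 and TGFBR1 fell, and the target TGFBI fell. With IRF1 silencing the genes that moved (TGFB1, SMAD7 and TGFBI) all fell, and no receptor passed the test. With DOX in MDA-MB-436/tet-MUC1shRNA cells TGFBR2 and SMAD3 rose and TGFB1 and TGFBR1 fell. Here "rose" and "fell" mean an adjusted p under 0.05 in limma on log2(TPM + 1), with Benjamini-Hochberg adjustment over all genes tested, and "called" also asks for a log2 fold beyond 1 in either direction.

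By counts, 2 of the 9 genes rose and 3 fell after PBRM1 silencing, where 24.6% of all 10639 tested genes rose and 34.8% fell. After IRF1 silencing 0 of the 8 tested genes rose and 3 fell, against 5.76% and 18.5% of 9135 genes. With DOX 2 rose and 2 fell, against 27.0% and 23.4% of 13229 genes. The median log2 fold of the tested genes of the set was -0.04, -0.19 and -0.09 in the PBRM1, IRF1 and MUC1 experiments, against -0.05, -0.06 and 0.01 over all tested genes. Only TGFBI was called, and lower, in the PBRM1 and IRF1 experiments, where 3.86% and 1.78% of genes were called lower (and 1.02% and 0.0547% higher), and 0 of the 9 were called with DOX, where 1.34% were called higher and 1.35% lower. Several others stood close to that limit and were called under alternatives. In the PBRM1 experiment these were TGFB2 with a pseudocount of 0.1 (-1.07) or short noncoding RNAs removed (-1.10), TGFBR1 with those RNAs removed (-1.05) or without control library b (-1.01), and TGFBR2 with a pseudocount of 0.1 (1.08), median-ratio (1.07) or quantile scaling (1.05) or without control library c (1.004). TGFB1 was called with IRF1shRNA at a pseudocount of 0.1 (-1.13) or with those RNAs removed (-1.01), and TGFBR2 with DOX without DOX replicate 3 (1.02). The 3 silenced libraries lay wholly on one side of the 3 controls for 5 of 9 genes, 4 of 8 and 7 of 9 in the PBRM1, IRF1 and MUC1 experiments, against 62.0%, 33.9% and 59.2% of all tested genes. The share of passing genes that were higher depended on scaling in BT-549: 41.4% became 30.3% with short noncoding RNAs removed, 56.7% with median-ratio and 57.1% with quantile scaling in the PBRM1 experiment, and 23.7% became 54.6%, 47.8% and 56.6% in the IRF1 experiment. Removing the short noncoding RNAs also moved the median of all genes by -0.12 in the PBRM1 experiment.

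**Figure D1:**
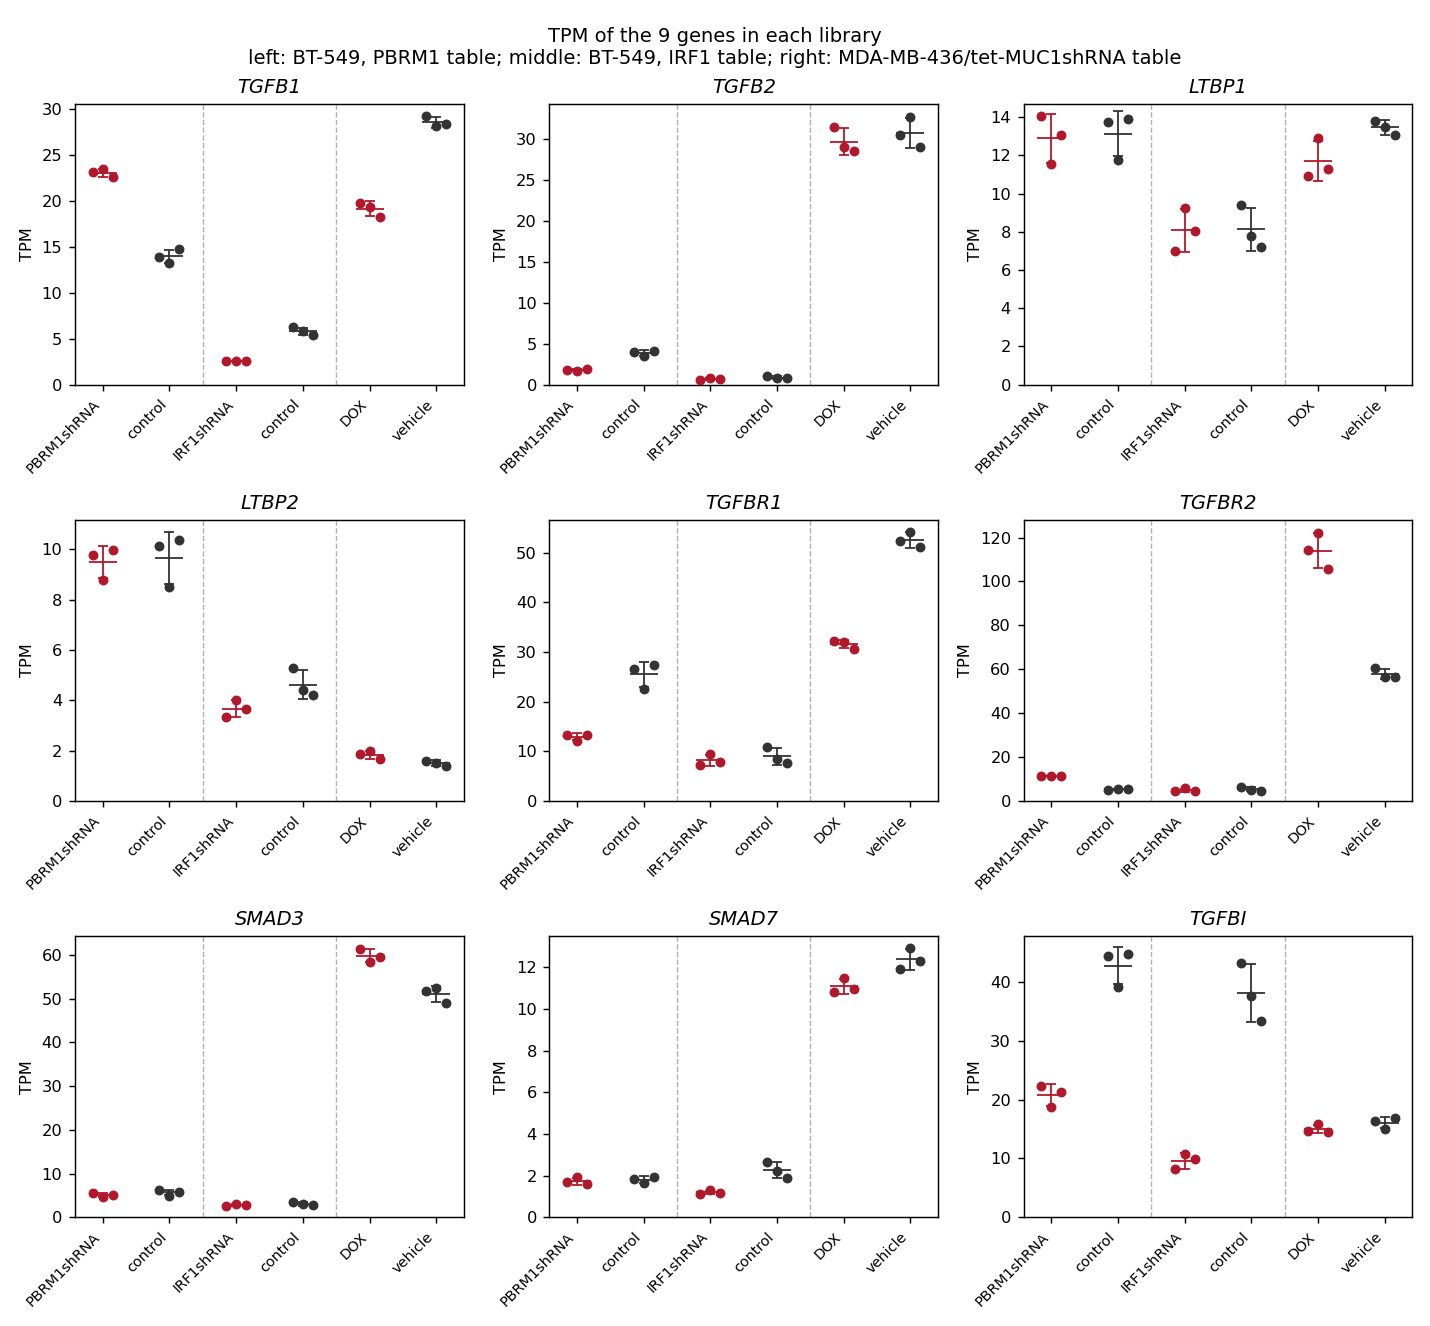
TPM (y axis, from 0) of the 9 genes in each of the 18 libraries. Points are libraries and bars the mean ± SD (n = 3), red for silenced and black for control or vehicle groups, with dashed lines between the separately normalized tables. TGFBI stands at 8.16 to 10.8 TPM with IRF1shRNA against 33.4 to 43.3 TPM in its control, and TGFBR2 at 106 to 122 TPM with DOX against 56.5 to 60.4 TPM with vehicle.

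**Figure D2:**
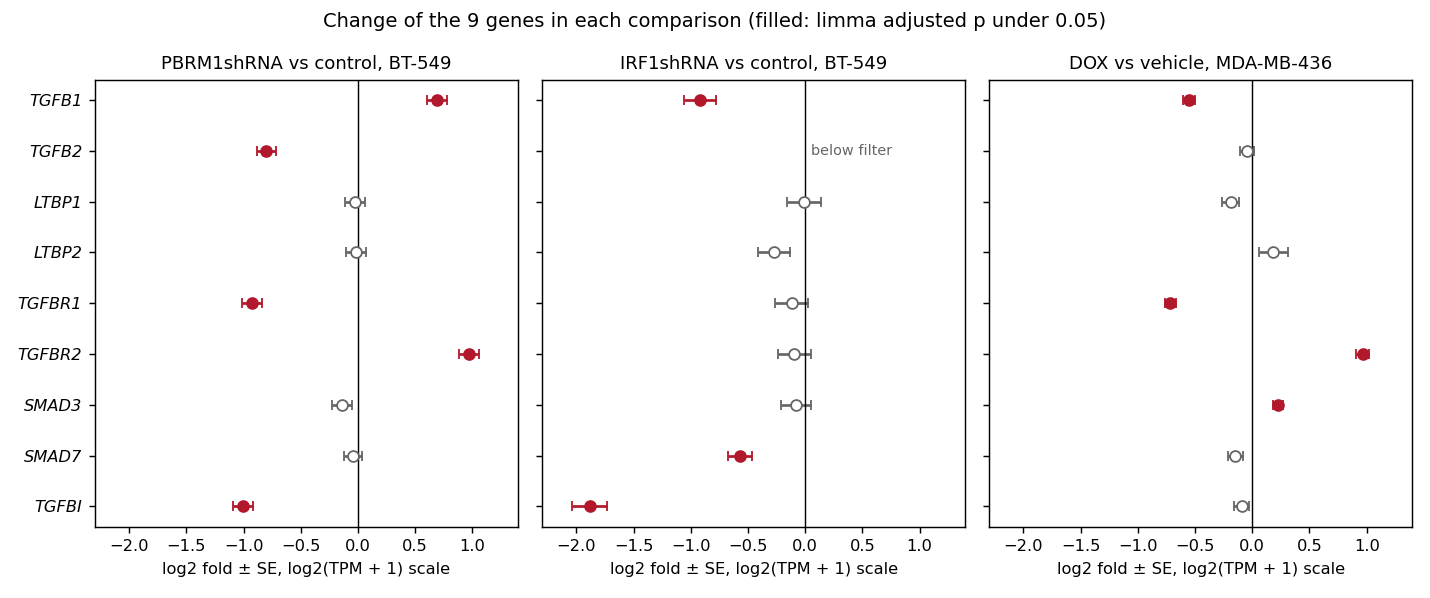
Log2 fold of each gene (x axis, silenced minus control on the log2(TPM + 1) scale, ± SE) in the 3 comparisons, with filled points for an adjusted p under 0.05. TGFB1 lies at 0.69 after PBRM1 silencing, -0.92 after IRF1 silencing and -0.55 with DOX. TGFB2 was below the filter in the IRF1 experiment.

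TGFB1 encodes the most widely expressed of the TGF-beta ligands. In BT-549 cells TGFB1 measured 23.2, 23.5 and 22.6 TPM with PBRM1shRNA, against 13.8, 13.3 and 14.7 TPM with control shRNA. The groups lay far apart, and TGFB1 rose by a log2 fold of 0.69 ± 0.088 (SE; adjusted p = 3.76e-14), a ratio of means of 1.65. In the IRF1 experiment the same gene went the other way, with 2.60, 2.59 and 2.63 TPM in IRF1shRNA cells against 6.24, 5.80 and 5.45 TPM in control cells. Its 3 silenced libraries were nearly equal and all below the control libraries, with a log2 fold of -0.92 ± 0.14 (adjusted p = 1.1e-09). In MDA-MB-436 cells TGFB1 measured 19.8, 19.4 and 18.3 TPM with DOX, against 29.2, 28.1 and 28.3 TPM with vehicle. It fell there by 0.55 on the log2 scale (SE 0.052, adjusted p = 4.1e-05), without overlap of the groups.

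On chromosome 19 TGFB1 overlaps CCDC97, HNRNPUL1 and TMEM91, which are annotated on the opposite strand. The libraries were made with a stranded kit, but whether counting used strand is not given in the sources used here, and without it reads of overlapping genes cannot be told apart. HNRNPUL1 had a log2 fold of 0.31 (adjusted p = 0.000901) with PBRM1shRNA, 0.06 (adjusted p = 0.82) with IRF1shRNA and -0.41 (adjusted p = 1.75e-05) with DOX. CCDC97 had a log2 fold of -0.27 with PBRM1shRNA, 0.14 with IRF1shRNA and -0.10 with DOX. TMEM91 averaged at most 1.67 TPM in any group, and TGFB2-OT1, which overlaps TGFB2, was listed at 0 throughout. The part of these neighbors in the TGFB1 values was not tested.

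TGFB2, a second ligand isoform, stood far below TGFB1 in BT-549 cells and at or above the level of TGFB1 in MDA-MB-436 cells. It measured 1.82, 1.68 and 1.86 TPM with PBRM1shRNA, against 3.96, 3.47 and 4.16 TPM with control shRNA. TGFB2 thus fell where TGFB1 rose, with a log2 fold of -0.80 ± 0.083 (adjusted p = 3.5e-21) and a 2.16-fold lower mean. In the IRF1 experiment it was listed at 0.62, 0.77 and 0.71 TPM with IRF1shRNA and 1.05, 0.82 and 0.76 TPM with control shRNA, below the filter of 1 TPM in at least 3 libraries. Those groups overlapped narrowly. With short noncoding RNAs removed, a scale that lifts TGFB2 past the filter, its log2 fold was -0.17 (adjusted p = 0.0424), and with no filter it was -0.14 (adjusted p = 0.313). With DOX TGFB2 measured 31.5, 28.98 and 28.6 TPM, against 30.5, 32.7 and 29.1 TPM with vehicle, overlapping groups with a log2 fold of -0.05 ± 0.061 (adjusted p = 0.532).

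Within a library the ratio of TGFB2 to TGFB1 does not depend on how the table was scaled. It averaged 0.0775 ± 0.0055 with PBRM1shRNA and 0.277 ± 0.013 with control shRNA, 0.268 ± 0.030 with IRF1shRNA and 0.150 ± 0.017 with its control, and 1.55 ± 0.049 with DOX and 1.08 ± 0.075 with vehicle (SD, n = 3 each). The 3 silenced libraries lay below their controls in the PBRM1 experiment and above them in the other experiments. An exact permutation test of 3 against 3 libraries cannot go below p = 0.1, so no p is given for ratios.

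LTBP1 covalently binds the latent complex of TGF-beta, whereas LTBP2, a related microfibril protein, does not bind it. In BT-549 cells LTBP1 measured 14.1, 11.5 and 13.1 TPM with PBRM1shRNA against 13.8, 11.8 and 13.9 TPM with control shRNA, and 6.98, 9.24 and 8.02 TPM with IRF1shRNA against 9.38, 7.79 and 7.22 TPM with control shRNA. Both pairs of groups overlapped throughout, with log2 folds of -0.03 ± 0.088 (adjusted p = 0.807) and -0.01 ± 0.15 (adjusted p = 0.979). With DOX LTBP1 measured 10.9, 12.9 and 11.3 TPM, against 13.8, 13.5 and 13.1 TPM with vehicle. The DOX libraries were all below the vehicle libraries, with a log2 fold of -0.19 ± 0.075 that missed the threshold (adjusted p = 0.0597) and passed it without DOX replicate 2 (log2 fold -0.26, adjusted p = 0.0207).

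LTBP2 measured 9.78, 8.76 and 9.96 TPM with PBRM1shRNA, against 10.1, 8.48 and 10.4 TPM with control shRNA. These overlapped, with a log2 fold of -0.02 ± 0.088 (adjusted p = 0.86). In the IRF1 experiment LTBP2 measured 3.33, 4.004 and 3.65 TPM with IRF1shRNA, against 5.27, 4.41 and 4.20 TPM with control shRNA, groups that did not overlap. The log2 fold of -0.27 ± 0.14 missed the threshold (adjusted p = 0.159), while under 3 other scalings it ran from -0.21 to -0.17 and passed, with adjusted p between 0.000237 and 0.00243. With DOX LTBP2 was the lowest of the 9 genes at 1.86, 1.99 and 1.66 TPM, against 1.60, 1.52 and 1.37 TPM with vehicle, and had a log2 fold of 0.18 ± 0.13 (adjusted p = 0.257). The ratio of LTBP1 to TGFB1 averaged 0.559 ± 0.060 with PBRM1shRNA against 0.941 ± 0.053 in its control, 3.10 ± 0.44 with IRF1shRNA against 1.39 ± 0.099 in its control, and 0.611 ± 0.058 with DOX against 0.471 ± 0.0093 with vehicle (SD, n = 3 each).

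TGFBR1 encodes the type I receptor kinase (ALK5), which carries the signal to the SMADs. It measured 13.3, 12.1 and 13.3 TPM with PBRM1shRNA, against 26.5, 22.6 and 27.4 TPM with control shRNA, a 1.98-fold lower mean. No silenced library came near the controls, and the log2 fold was -0.93 ± 0.088 (adjusted p = 4.64e-25). In the IRF1 experiment TGFBR1 measured 7.22, 9.40 and 7.82 TPM with IRF1shRNA, against 10.9, 8.46 and 7.56 TPM with control shRNA. Here the groups overlapped and the log2 fold was -0.12 ± 0.15 (adjusted p = 0.631). In MDA-MB-436 cells TGFBR1 fell again, with 32.1, 32.0 and 30.6 TPM with DOX against 52.3, 54.2 and 51.0 TPM with vehicle, a log2 fold of -0.72 ± 0.045 (adjusted p = 4.24e-06).

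TGFBR2, the ligand-binding type II receptor, moved opposite to TGFBR1. It measured 11.6, 11.2 and 11.3 TPM with PBRM1shRNA, against 5.06, 5.25 and 5.61 TPM with control shRNA, a 2.14-fold higher mean. The log2 fold of 0.97 ± 0.088 (adjusted p = 7.32e-27) was about equal in size to the fall of TGFBR1. With IRF1shRNA TGFBR2 measured 4.54, 5.68 and 4.54 TPM, against 6.40, 4.92 and 4.70 TPM with control shRNA, and the log2 fold of -0.09 ± 0.14 did not pass (adjusted p = 0.704). With DOX it reached 114, 122 and 106 TPM, against 60.4, 56.5 and 56.5 TPM with vehicle. It was the most abundant of the 9 genes in both MDA-MB-436 groups and rose by a log2 fold of 0.97 ± 0.056 (adjusted p = 2.78e-06).

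The ratio of TGFBR2 to TGFBR1 summarizes these changes within each library. It averaged 0.882 ± 0.042 with PBRM1shRNA and 0.209 ± 0.021 with control shRNA, and 3.61 ± 0.18 with DOX and 1.10 ± 0.056 with vehicle. With IRF1shRNA it was 0.605 ± 0.024, against 0.597 ± 0.022 in its control, and these ranges overlapped. Across the 18 libraries, each taken relative to the mean of its table, TGFBR1 and TGFBR2 correlated at -0.84, a description over libraries that share 3 tables and 6 groups. PBRM1 itself had a log2 fold of -0.60 ± 0.064 with DOX (adjusted p = 8.53e-05) and of 0.02 ± 0.15 with IRF1shRNA (adjusted p = 0.959). Whether PBRM1 has a part in the receptor changes with DOX was not tested.

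**Figure D3:**
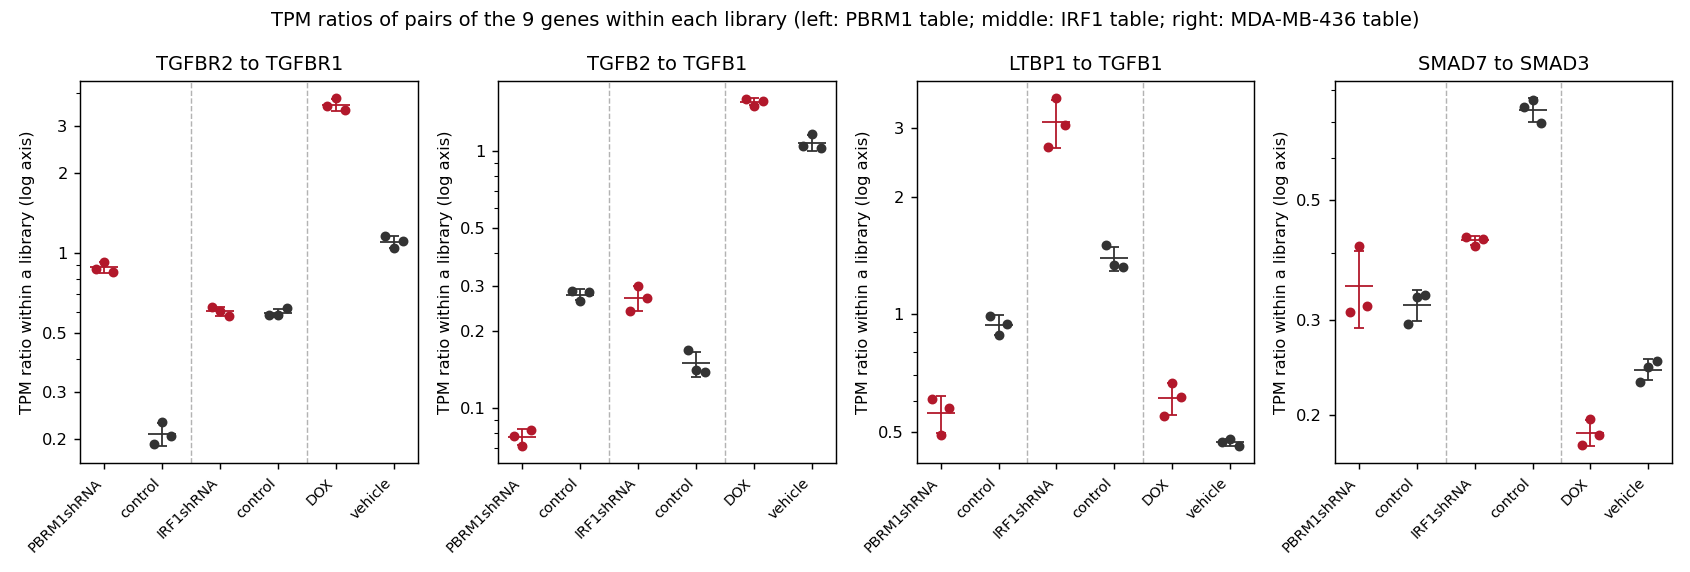
Ratios of TPM within each library (y axis, log scale) for 4 pairs of the genes. Points are libraries and bars the mean ± SD (n = 3), red for silenced and black for control or vehicle groups. The TGFBR2 to TGFBR1 ratio is higher with PBRM1shRNA (0.845 to 0.928) than in its control (0.191 to 0.232) and with DOX (3.46 to 3.81) than with vehicle (1.04 to 1.15), and overlaps between the IRF1 groups.

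SMAD3 is the transcription factor that TGFBR1 activates. It measured 5.47, 4.65 and 4.98 TPM with PBRM1shRNA, against 6.21, 4.96 and 5.86 TPM with control shRNA. These groups overlapped, and the log2 fold of -0.14 ± 0.087 did not pass (adjusted p = 0.146), but with the library number as a block the same fold passed (SE 0.051, adjusted p = 0.00929), as did that without control library b (-0.22, adjusted p = 0.00689), with array weights (-0.25, adjusted p = 1.12e-16) and once short noncoding RNAs were left out (-0.25, adjusted p = 0.00301). Of all tested genes 9218 of 10639 passed with array weights, 9229 of 12682 without those RNAs and 8030 with the block, against 6327 in the main fit. The fits with array weights did not fully converge in some cases. With median-ratio and quantile scaling the SMAD3 fold shrank to -0.05 (adjusted p = 0.334) and -0.03 (adjusted p = 0.492). With IRF1shRNA SMAD3 measured 2.63, 3.12 and 2.75 TPM, against 3.57, 2.91 and 2.73 TPM with control shRNA, again overlapping (log2 fold -0.08 ± 0.13, adjusted p = 0.717). In MDA-MB-436 cells SMAD3 measured 61.4, 58.5 and 59.6 TPM with DOX, against 51.7, 52.6 and 48.9 TPM with vehicle. All DOX libraries were above all vehicle libraries, a rise of 0.22 ± 0.044 (log2; adjusted p = 0.00268) and a ratio of means of 1.17.

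SMAD7 blocks the activated type I receptor and brings ubiquitin ligases to it. It measured 1.70, 1.92 and 1.59 TPM with PBRM1shRNA, against 1.84, 1.64 and 1.95 TPM with control shRNA, fully overlapping groups (log2 fold -0.04 ± 0.078, adjusted p = 0.677). In the IRF1 experiment it fell, with 1.13, 1.29 and 1.17 TPM in IRF1shRNA cells against 2.67, 2.23 and 1.90 TPM in control cells, a log2 fold of -0.57 ± 0.11 (adjusted p = 2.82e-06) and a 1.90-fold lower mean. At this level the added 1 TPM understates the fold. With DOX SMAD7 measured 10.8, 11.5 and 10.9 TPM, against 11.9, 12.9 and 12.3 TPM with vehicle, without overlap but also without passing the test (log2 fold -0.15 ± 0.064, adjusted p = 0.0854). The SMAD7 to SMAD3 ratio averaged 0.347 ± 0.056 with PBRM1shRNA against 0.320 ± 0.021 in its control, 0.421 ± 0.0087 with IRF1shRNA against 0.736 ± 0.037 in its control, and 0.185 ± 0.010 with DOX against 0.243 ± 0.011 with vehicle (SD, n = 3 each).

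TGFBI encodes a secreted matrix protein that binds integrins and collagens, and it fell in both BT-549 experiments. With PBRM1shRNA it measured 22.3, 18.8 and 21.3 TPM, against 44.5, 39.2 and 44.7 TPM with control shRNA. The means differed 2.06-fold, with a log2 fold of -1.01 ± 0.087 (adjusted p = 1.29e-29), just past the limit for a call. With IRF1shRNA it measured 8.16, 10.8 and 9.89 TPM, against 43.3, 37.7 and 33.4 TPM with control shRNA. Every silenced library lay far below every control library, with a 3.97-fold lower mean and a log2 fold of -1.88 ± 0.15 (adjusted p = 2.77e-33). In MDA-MB-436 cells TGFBI measured 14.6, 15.9 and 14.6 TPM with DOX and 16.3, 15.1 and 16.9 TPM with vehicle. Those groups overlapped, and its log2 fold was -0.09 ± 0.066 (adjusted p = 0.273). In the PBRM1 experiment the log2 fold stood so near the limit that TGFBI was no longer called without PBRM1shRNA replicate 2 (-0.94), control library a (-0.98) or control library c (-0.98), or with median-ratio scaling (-0.90), though it still fell in each case.

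Silencing of PBRM1 and of IRF1 was compared directly in BT-549 cells, each effect taken against its own control within its own table. The 2 tables differ in TPM scale, so the added 1 TPM shrinks the 2 effects of a gene unequally. This enters every difference of effects given here. Of the 8 genes tested in both, 4 had a higher and 1 a lower effect with PBRM1shRNA, where 22.3% and 18.9% of 9032 genes did. The lower count was 2 with no filter, 3 with array weights and 4 with short noncoding RNAs removed, and the higher count 2 among genes averaging 5 TPM or more. Of all genes in these fits 3475 of 18742, 3827 of 9032 and 5973 of 12209 were lower, and 1101 of 3956 higher. In the main fit 1708 of 9032 were lower and 2014 higher. Of all genes past this test 54.1% were higher, and 30.5% with short noncoding RNAs removed. The difference (PBRM1 effect minus IRF1 effect) was 1.61 ± 0.16 for TGFB1 (adjusted p = 5.98e-22), 1.06 ± 0.16 for TGFBR2 (adjusted p = 2.56e-10) and -0.81 ± 0.16 for TGFBR1 (adjusted p = 5.4e-06). TGFBI fell in both experiments and fell further with IRF1shRNA, a difference of 0.88 ± 0.17 (adjusted p = 1.26e-06). SMAD7 gave 0.53 ± 0.12 (adjusted p = 0.000105). SMAD3, LTBP1 and LTBP2 did not pass, with differences of -0.06 ± 0.15, -0.02 ± 0.16 and 0.25 ± 0.16. IRF1 itself also fell with PBRM1shRNA (7.46 ± 0.57 TPM, against 24.4 ± 1.62 TPM in control cells), and its change there did not pass the test of a difference from that with IRF1shRNA (difference -0.18 ± 0.16, adjusted p = 0.36). By ratio of means IRF1 was 3.27-fold lower with PBRM1shRNA and 4.05-fold lower with IRF1shRNA, an order opposite to the sign of this difference. The MDA-MB-436 effects were not tested against those in BT-549 cells, since line, silenced gene and table change together.

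The order of levels within a group shifted with silencing. In BT-549 control cells of both experiments TGFBI was the highest of the 9 genes and TGFBR1 the next, in the IRF1 experiment with a range that overlapped that of LTBP1. With PBRM1shRNA TGFB1 took the first place (22.6 to 23.5 TPM) just above TGFBI (18.8 to 22.3 TPM), and TGFBR1, LTBP1 and TGFBR2 followed between 11.2 and 14.1 TPM. With IRF1shRNA TGFBI, TGFBR1 and LTBP1 overlapped at the top (6.98 to 10.8 TPM), and TGFB1 dropped below SMAD3 in mean, with overlapping ranges. In MDA-MB-436 cells with DOX the order ran from TGFBR2 through SMAD3 to TGFBR1 and TGFB2, the last pair overlapping, whereas with vehicle TGFBR1 (51.0 to 54.2 TPM) and SMAD3 (48.9 to 52.6 TPM) overlapped just below TGFBR2.

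Beyond these 9 genes, 98 further genes of the pathway were listed in the tables. After PBRM1 silencing 19 of the 80 tested rose and 37 fell, with a median log2 fold of -0.14. After IRF1 silencing 2 of 67 rose and 28 fell (median -0.28), and with DOX 24 of 75 rose and 27 fell (median -0.05). Of all tested genes, 24.6% rose and 34.8% fell in the PBRM1 experiment (median -0.05). In the IRF1 experiment 5.76% rose and 18.5% fell (median -0.06), and in the MUC1 experiment 27.0% rose and 23.4% fell (median 0.015). The highest 4 that rose with PBRM1shRNA were the matrix gene POSTN (1.52 ± 0.088), the integrin chains ITGA5 (1.13) and ITGAV (1.06), and tropomyosin TPM1 (0.78). Lowest were the activin antagonist follistatin FST (-2.25 ± 0.088), smooth muscle actin ACTA2 (-2.05) and the collagens COL4A2 (-1.84) and COL6A3 (-1.49). With IRF1shRNA the risers were ITGAV (0.44 ± 0.14) and the corepressor TGIF2 (0.38 ± 0.13), and the largest falls were in the ligand GDF15 (-1.19 ± 0.15), ID3 (-1.19 ± 0.15), ITGA5 (-1.16) and SMAD5 (-1.14). With DOX ID3 (1.55 ± 0.20), LTBP3 (1.21), SNAI2 (1.09) and ID1 (0.84) rose most, and PMEPA1 (-1.15 ± 0.086), COL3A1 (-1.06), ZEB1 (-0.86) and MMP2 (-0.83) fell most. All of these are log2 folds on the log2(TPM + 1) scale. Neither IRF1shRNA riser passed with the replicate block (adjusted p = 0.131 for ITGAV and 0.146 for TGIF2), with no filter, or without IRF1shRNA replicate 2 or 3 or control replicate 2 or 3. Under the 3 other scalings 14 to 19 pathway genes rose there, and more of all tested genes did too. These numbered 4494 of 12707 with short noncoding RNAs removed, 3026 of 9201 with median-ratio and 3626 of 9135 with quantile scaling, against 526 of 9135 in the main fit. The 28 that fell became 50 with short noncoding RNAs removed and 18 without IRF1shRNA replicate 1, and the 19 that rose with PBRM1shRNA became 29 with median-ratio or quantile scaling. Over all tested genes the falls with IRF1shRNA went from 1693 of 9135 to 3732 of 12707 and 935 of 9074 in these fits. The rises with PBRM1shRNA went from 2620 of 10639 to 4611 of 10653 with median-ratio and 4558 of 10639 with quantile scaling.

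By role, target genes were the largest list. Of those tested, 8 of 31 rose and 16 fell after PBRM1 silencing (median -0.31), 0 of 27 rose and 12 fell after IRF1 silencing (median -0.33), and 14 of 28 rose and 8 fell with DOX (median 0.20). With IRF1shRNA the target genes that rose numbered 6 with short noncoding RNAs removed, 4 with median-ratio and 6 with quantile scaling, and those that fell 19, 18 and 15. Under the same scalings 4494 of 12707, 3026 of 9201 and 3626 of 9135 of all tested genes rose, and 3732, 3300 and 2781 fell. The ID genes, inhibitors of basic helix-loop-helix factors that BMP signals induce, fell in 3 of 4 after PBRM1 and in 3 of 4 after IRF1 silencing, and rose in 2 of 3 with DOX. Over all tested genes 24.6%, 5.76% and 27.0% rose and 34.8%, 18.5% and 23.4% fell in the PBRM1, IRF1 and MUC1 experiments.

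Among upstream components, the other ligands rose in 1 and fell in 3 of 5 after PBRM1 silencing, 0 and 2 of 3 after IRF1 silencing and 1 and 2 of 4 with DOX. The latency and activation genes, among them integrins and thrombospondin, rose in 3 and fell in 5 of 11, 1 and 3 of 9, and 4 and 4 of 11 in the same order of experiments. Of the other receptors and coreceptors 2 rose and 3 fell of 7, 0 and 3 of 5, and 1 and 3 of 8. The other SMADs and their cofactors rose in 1 and fell in 5 of 12, 0 and 3 of 11, and 2 and 4 of 10, and the inhibitors in 4 and 3 of 14, 1 and 3 of 12, and 2 and 8 of 15. SMAD2 and SMAD4, named here as the partners of SMAD3 and not for their values, had log2 folds of 0.10 and 0.02 with PBRM1shRNA and -0.01 and 0.19 with IRF1shRNA, none past the test, while with DOX SMAD2 fell (-0.53 ± 0.046, adjusted p = 2.67e-05) and SMAD4 had a log2 fold of -0.15 that did not pass. TGIF1, SKIL, PMEPA1 and LTBP3 stand in 2 lists each. The shares of all tested genes that rose and fell, given above for the target genes, stand beside these counts too.

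**Figure D4:**
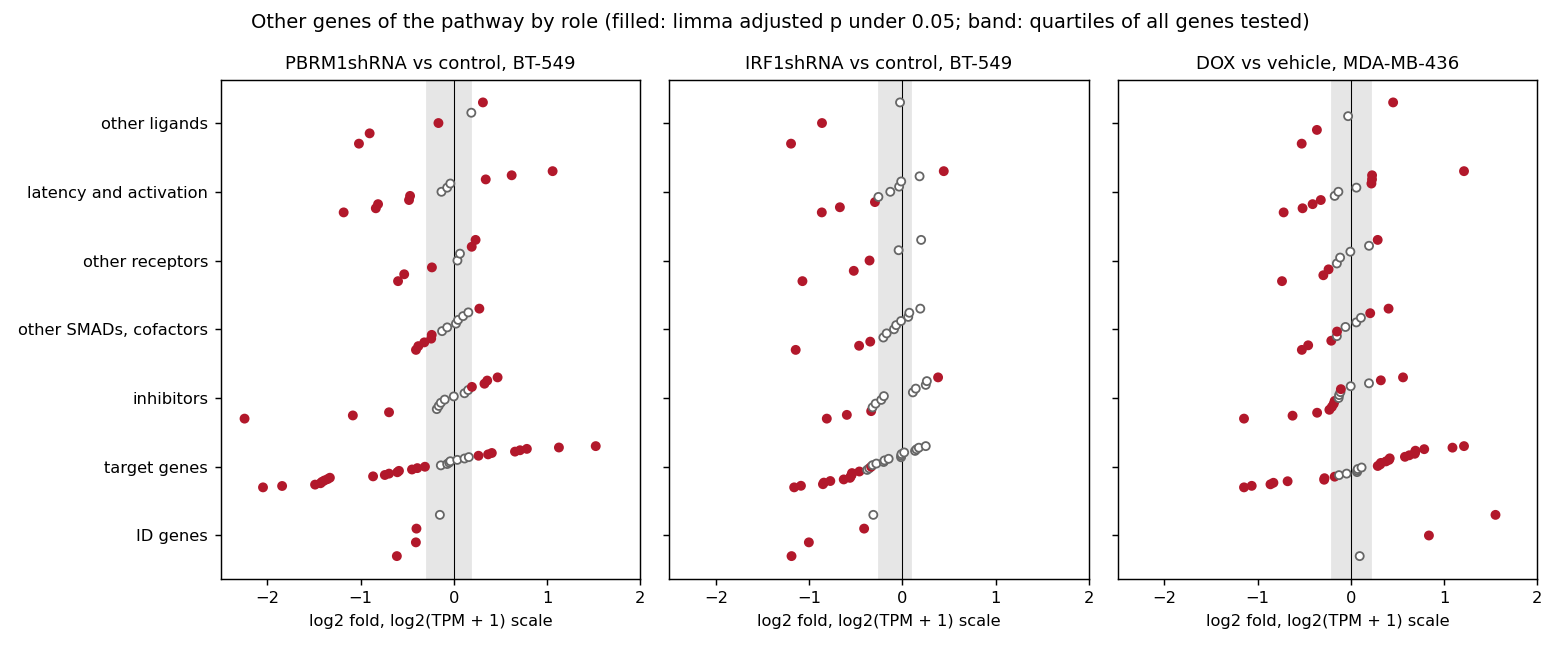
Log2 folds (x axis, log2(TPM + 1) scale) of the other pathway genes by role (y axis, genes of a role spread upwards by fold) in the 3 comparisons, filled where the adjusted p was under 0.05. The gray band spans the lower to the upper quartile of all tested genes, -0.29 to 0.18, -0.25 to 0.10 and -0.20 to 0.21. Target genes spread to both sides after PBRM1 silencing (8 rose, 16 fell) and with DOX (14 rose, 8 fell), and 0 rose and 12 fell after IRF1 silencing. Under other scalings 4 to 6 rose there, where 3026 to 4494 of all tested genes rose, against 526 in the main fit.

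Some sums of lineage markers differed between the groups in the same libraries, while those of mesenchymal markers overlapped in both BT-549 experiments. The 9 epithelial markers summed to 54.4 to 63.2 TPM with PBRM1shRNA against 27.6 to 30.7 TPM in its control, 5.54 to 6.04 TPM with IRF1shRNA against 17.0 to 22.6 TPM in its control, and 1653 to 1729 TPM with DOX against 841 to 870.2 TPM with vehicle. Of these 9, only 3 averaged 1 TPM or more with PBRM1shRNA and 2 in its control. The number was 1 with IRF1shRNA, 2 in its control and 5 in each MDA-MB-436 group. The 8 mesenchymal markers, of which FN1, ZEB1, SPARC and COL1A1 are also in the target list, summed to 1190 to 1245 TPM with PBRM1shRNA against 1199 to 1356 TPM in its control, 372 to 459 TPM with IRF1shRNA against 457 to 599 TPM in its control, and 1426 to 1507 TPM with DOX against 2141 to 2254 TPM with vehicle. Summed stromal markers were 43.5 to 45.04 TPM with PBRM1shRNA against 72.5 to 77.6 TPM in its control, with 1 of 5 above 1 TPM on average, and summed leukocyte markers 12.5 to 13.8 TPM against 31.0 to 35.4 TPM, where CD68 alone was above 1 TPM and CD3E, CD3D, MS4A1 and LYZ were at 0. Stromal markers summed to 17.99 to 20.5 TPM with IRF1shRNA against 24.9 to 30.3 TPM in its control, and leukocyte markers to 5.93 to 6.89 TPM against 8.17 to 9.31 TPM. With DOX the stromal sums (13.5 to 16.6 TPM, against 14.5 to 15.6 TPM with vehicle) and leukocyte sums (104 to 115 TPM, against 109 to 116 TPM) overlapped, and endothelial markers summed to 0.561 to 0.723 TPM against 1.54 to 1.83 TPM. Mesenchymal markers of the target list did not all follow their sums. With PBRM1shRNA COL1A1 rose (log2 fold 0.71), while SPARC (-0.45), FN1 (-1.35) and ZEB1 (-0.59) fell. With DOX FN1 rose (0.41) and ZEB1 fell (-0.86). Of the 8 mesenchymal markers 6 averaged 1 TPM or more with DOX, and 8 with vehicle. With IRF1shRNA FN1 (-0.38), ZEB1 (-0.15), SPARC (0.14) and COL1A1 (-0.19) did not pass the test. The part of the marker shifts in the TGF-beta genes was not tested.

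Genes whose pattern was most like that of a member were sought among 8893 genes tested in all tables, as Pearson correlation of log2(TPM + 1) over the 18 libraries, each minus the mean of its table. TGFBI was matched most closely by CD24 (r = 0.99), PSME1 (0.98) and CSTB (0.98), TGFB1 by HIST1H2BL (0.98), FSCN1 (0.97) and SPC24 (0.97), TGFBR1 by NFE2L2 (0.99), KAT6B (0.98) and ARAP1 (0.98), and TGFBR2 by BAIAP2L1 (0.99), SCD5 (0.98) and DICER1 (0.97). SMAD7 was closest to CCND1 (0.95), BAG3 (0.95) and SOX12 (0.95), and SMAD3 to SSFA2 (0.96), SNU13 (0.95) and FBXO21 (0.95). LTBP1 was closest to GIT2 (0.95), GGA2 (0.94) and RBM12B (0.93), and LTBP2 to SOCS6 (0.96), GNAQ (0.95) and TIPRL (0.94). Among the members themselves the highest correlations were TGFBI with SMAD7 (0.84), SMAD3 with LTBP2 (0.80) and TGFB1 with SMAD7 (0.73). With 3 group differences behind the 18 points, such values describe shared shifts between groups and carry no test.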

How the data were processed

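Total RNA from triplicate cultures was sequenced with a stranded polyadenylated-RNA kit. The submitters' processing notes name STAR, GRCh38 and DESeq2, without versions, and give no annotation, read counter or TPM program. Per experiment the authors deposited 1 table of TPM (3 in all), each column scaled to 1000000 over all listed genes including short noncoding RNAs. The authors also deposited a mean normalized count per gene (a signal averaged over 6 libraries), used only as a guide to depth. For the 9 genes it ran from 245 (SMAD7) to 5107 (TGFBR1) in the PBRM1 table, from 1053 (TGFB2) to 13895 (TGFBI) in the IRF1 table and from 74.3 (LTBP2) to 2048 (TGFBR2) in the MUC1 table. Their fold changes, standard errors and p-values were not used. TPM keeps no depth per library, so the depth behind each value is unknown and counting intervals are not given.

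Genes with at least 1 TPM in at least 3 of 6 libraries were compared as log2(TPM + 1) by limma (version 3.58.1, R 4.3.3), using lmFit and eBayes with trend (two-sided, Benjamini-Hochberg adjustment over all genes tested). A fold on this scale understates changes of low genes. For BT-549 the fits returned infinite prior degrees of freedom, so the SE follows expression level and p-values can be very small. The difference of effects was fitted over the 12 BT-549 libraries. The pipeline was tested on simulated data. No identical columns were found (0 pairs). The labels give the PBRM1 controls a stable control shRNA. The control columns of that table name only the cell line, match no single label and were assigned to their group only (a, b and c). Deviations of PBRM1shRNA and control libraries with the same last number in the column name correlated at 0.455, 0.309 and 0.290. Those with different numbers correlated at -0.377 to 0.114. What the number stands for is not stated, so whether the libraries are paired is not known, and the main fits used no pairing.

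The 9 genes, the other pathway lists (ligands, latency and activation, receptors, SMADs and cofactors, inhibitors, target genes, ID genes) and the marker lists were chosen with earlier results of these data known. Named were the 9 genes, the silenced genes, per comparison and direction the 4 other pathway genes with the largest log2 fold among those past the test without overlap, and the 3 genes most correlated with each gene. Motifs were searched in 250-base windows of RefSeq (GRCh38.p14), where all 9 genes matched by symbol. Alternatives were another pseudocount, other filters, 3 other scalings, no trend, array weights, a replicate block and leaving out each library.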

Additional observations from a re-analysis of the deposited data

Results flagged for a closer look

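PBRM1shRNA and IRF1shRNA differed in their effects, by a test of the difference itself in limma, for TGFB1 (PBRM1 effect minus IRF1 effect 1.61, from effects of 0.69 and -0.92), TGFBR1 (-0.81, from -0.93 and -0.12), TGFBR2 (1.06, from 0.97 and -0.09), SMAD7 (0.53, from -0.04 and -0.57) and TGFBI (0.88, from -1.01 and -1.88), all on the log2(TPM + 1) scale. On that scale the added 1 TPM shrinks the effects of the 2 experiments unequally. TGFB1 is the only one of the 8 genes tested in both experiments that passed the test in opposite directions, higher in 3 of 3 PBRM1shRNA libraries and lower in 3 of 3 IRF1shRNA libraries than in every library of the matching control.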

How the results depend on the processing

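Each of the 12 changes past the test among the 9 genes (5 with PBRM1shRNA, 3 with IRF1shRNA, 4 with DOX) kept its direction and its side of the threshold under every alternative that tested the gene. Of the other log2 folds, those near 0 changed sign. In the PBRM1 experiment SMAD7 was 0.0358 with median-ratio scaling and 0.163 with quantile scaling (adjusted p = 0.0382), LTBP1 0.0803 and 0.0174, and LTBP2 0.0852 and 0.0563. With 1 library left out LTBP1 ran from -0.0992 to 0.0447 and LTBP2 from -0.102 to 0.0318. In the IRF1 experiment TGFBR2 was 0.0065 without short noncoding RNAs, SMAD3 0.0085 there and 0.0068 with quantile scaling, and LTBP1 0.107 without short noncoding RNAs, 0.0538 with median-ratio scaling, 0.0791 with quantile scaling and 0.0356 with array weights. With 1 library left out TGFBR1 ran from -0.222 to 0.017, TGFBR2 from -0.184 to 0.0221, SMAD3 from -0.143 to 0.0029 and LTBP1 from -0.0993 to 0.0874, the positive values without control replicate 1 (for LTBP1 also without IRF1shRNA replicate 1). The difference of effects for LTBP1 was 0.0265 with median-ratio scaling and ran from -0.114 to 0.0722 with 1 library left out. The cause of these changes was not tested.

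Counts moved by over 1.5 times as follows. With array weights, whose fit did not fully converge in some cases, 6 genes of the set fell with PBRM1shRNA, and 1 rose and 7 fell with IRF1shRNA. With IRF1shRNA 1 fell among genes averaging 5 TPM or more and 5 fell without short noncoding RNAs, where TGFB2 and LTBP2 joined. For the difference of effects 2 were higher among genes averaging 5 TPM or more, and 2 were lower with no filter, 4 without short noncoding RNAs and 3 with array weights. Of all genes in these fits 1101 of 3956 were higher, and 3475 of 18742, 5973 of 12209 and 3827 of 9032 lower. Of the other pathway genes 29 rose with PBRM1shRNA under median-ratio and 29 under quantile scaling. With IRF1shRNA 1 rose with no filter, 1 at a mean of 5 TPM, 19 without short noncoding RNAs, 14 with median-ratio scaling, 18 with quantile scaling and 17 with array weights, and 50 fell without short noncoding RNAs and 47 with array weights. With array weights 5490 of all 10639 tested genes fell with PBRM1shRNA. In the IRF1 experiment 3367 of 9135 rose and 5117 fell with these weights. With 1 library left out 0 to 8 rose there (8 without control replicate 1) and 18 to 29 fell (18 without IRF1shRNA replicate 1).

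With the replicate block, SMAD3 passed in the PBRM1 experiment (log2 fold -0.14) and no other call among the 9 genes changed. Over all genes 8030 passed there in place of 6327. In the IRF1 and MUC1 experiments the numbers did not pair the libraries (correlations of deviations -0.21, 0.09 and 0.23, and 0.05, -0.04 and 0.01, and not every library correlated best with its own number), and the block took the genes past the test to 1116 in place of 2219 and to 6468 in place of 6662, and the other pathway genes that rose with IRF1shRNA to 0. Over all genes, those past the test with IRF1shRNA numbered 6326 with median-ratio scaling, 6407 with quantile scaling, 8226 without short noncoding RNAs, 8484 with array weights and 817 at a mean of 5 TPM, and with PBRM1shRNA 3680 at a mean of 5 TPM in place of 6327. Read depth is unknown, and the genes near 1 TPM (TGFB2 and SMAD7 with IRF1shRNA, LTBP2 in MDA-MB-436 cells) are the ones whose folds the added 1 TPM understates most.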

Other observations

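The BT-549 control groups of the PBRM1 and IRF1 experiments come from separate tables, and a ratio within a library removes only the scale of that library. Experiment, control cells and table change together between these groups, so their parts in a difference of ratios cannot be told apart. TGFBR2 to TGFBR1 was 0.209 ± 0.021 in the control of the PBRM1 experiment and 0.597 ± 0.022 in the control of the IRF1 experiment, SMAD7 to SMAD3 0.320 ± 0.021 and 0.736 ± 0.037, LTBP2 to LTBP1 0.735 ± 0.013 and 0.569 ± 0.010, and TGFB2 to TGFB1 0.277 ± 0.013 and 0.150 ± 0.017 (SD, n = 3 each). None of these ranges overlapped between the control groups, but how often ratios of other genes separate there was not counted, so no result about these genes is drawn.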
